A study of Mus musculus with 4 samples.

Results

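Histone demethylases of the JmjC class remove methyl groups from lysines of histone tails in a reaction that uses iron, oxygen and 2-oxoglutarate. Kdm6b, also called JMJD3, and the X-linked Kdm6a, also called UTX, act on H3K27me3, the mark that the Polycomb complex PRC2 writes and that accompanies repressed chromatin. In B cells Kdm6b is known as a gene that is switched on by stimulation. The genes described here are Kdm6b, Kdm6a, Kdm2a, Kdm2b, Kdm3a, Kdm3b, Kdm4a, Kdm4b, Kdm4c and Kdm7a. They are 10 of the 21887 protein-coding genes on chromosomes 1 to 19, X and Y, and all 10 were found in the annotation. Their choice used no measured value, although earlier results of these maps were known. The question was where H3K27me3 lies over the enzymes that erase it and their relatives, and whether it lies differently when Kdm6b is lost.

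The study mapped H3K27me3 by CUT&Tag, in which an antibody directs a transposase to the marked chromatin. There were 2 libraries from mice named Kdm6b B KO, read here as a knockout of Kdm6b in B cells, and 2 from wild type (WT) mice, all C57BL/6. The labels give 2 mice of each genotype for these 4 libraries. The cells were spleen germinal center B cells, called pre-Plasma in the series title, sorted on day 12 after immunisation with sheep red blood cells and a boost on day 5. The means of deletion, the deleted exons, the age and sex of the mice and the sort markers were not given in the sources used here. A map of peaks does not show the deletion, so the genotype is taken from the labels.

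The libraries differed in breadth. The length of genome under peaks was 144 and 236 Mb for KO replicates 1 and 2, against 213 and 101 Mb for WT replicates 1 and 2, and read depth was unknown. Values are given as the covered share, the percentage of a stretch of DNA that lies under peaks of a library. A gene end means the 4 kb window from 2 kb before to 2 kb after a gene's lower or higher coordinate, and it is called marked where peaks cover at least 25% of it. The germinal center B markers Bcl6, Fas, Mki67 and S1pr2 had no marked end in any of the 4 libraries. The share of all protein-coding genes with a marked end was 33.9% and 46.7% in KO, against 41.1% and 26.9% in WT, and the marker counts are read against it. Marked T cell markers numbered 3 and 4 of 4 in KO, against 4 and 4 in WT, and marked myeloid markers 4 and 4 of 4 in KO, against 4 and 3 in WT. Among the 6 B lineage markers, 1 and 3 were marked in KO, against 0 and 0 in WT, which in KO replicate 2 was near the share of all genes. Ms4a1 (CD20) had 33.5% and 41.9% at its higher end in KO, against 0% and 14.3% in WT. It was named after its values were seen, and 6.58% of all gene ends had both KO values above both WT values. Among 4 plasma cell markers, 2 and 4 were marked in KO, against 2 and 2 in WT. Erythroid markers were marked at 2 and 3 of 3 in KO and 3 and 2 of 3 in WT. These are values of a repressive mark and not of RNA.

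Kdm6b carried H3K27me3 over the part of the gene that faces its neighbour Dnah2, in each of the 4 libraries. The gene (gene ID 216850) spans chr11:69398508-69420367 in mm10, 21860 bp. In the KO libraries the upper 10930 bp of the gene were covered to 69.9% and 100%, and in the WT libraries to 88.5% and 63.4%. The lower 10930 bp were covered to 12.6% and 33.1% in KO, against 10.8% and 9.92% in WT. The upper stretch exceeded the lower one in 4 of 4 libraries. The 4 kb window at the higher end was covered to 100% and 100% in KO, against 100% and 80.3% in WT, while the window at the lower end had 0% and 6.28% in KO, against 0% and 9.13% in WT. No base at the lower end was shared by all libraries there, since KO replicate 1 and WT replicate 1 had none.

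A single wide peak crossed the higher end of Kdm6b in each library and ran into Dnah2, which encodes a heavy chain of the dynein motor of cilia and whose nearer end lies 440 bp further on. Dnah2 reads on the minus strand, so its start is at the far end. This peak was 11059 bp wide in KO replicate 1 and 20051 bp in KO replicate 2, against 11457 bp in WT replicate 1 and 4553 bp in WT replicate 2. It was wider than 99.05% and 99.4% of all peaks in the KO lists and than 98.1% and 97.2% in the WT lists. By the authors' highest signal, which ranks peaks only within a list, it stood above 91.5% and 96.4% of peaks in KO and above 94.8% and 91.9% in WT. The stretch common to all 4 libraries at this end was chr11:69420074-69424626, which is the whole of the WT replicate 2 peak. It takes in the bases of Kdm6b at its higher coordinate, the 439 bp between the genes and the lower end of Dnah2. The strand of Kdm6b was not used here, so this end is not named as its start or its tail.

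**Figure D1:**
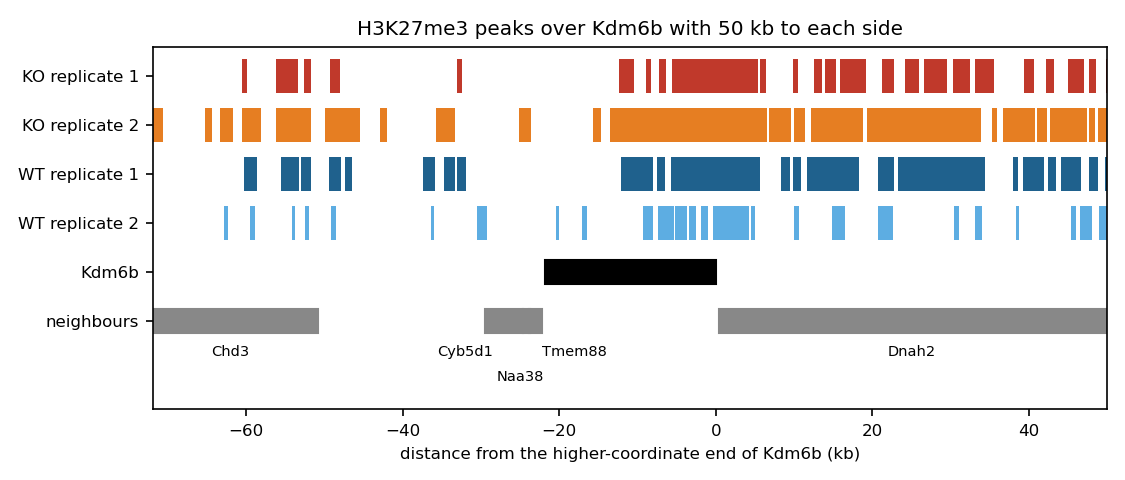
Peaks of each library (coloured blocks) over Kdm6b with 50 kb to each side, against the distance in kb from the higher-coordinate end of Kdm6b, with gene bodies as boxes and neighbours cut at the edge. The KO libraries are above the WT libraries, and in each of the 4 a wide peak, 4553 to 20051 bp long, crosses position 0 into Dnah2.

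Of the 21860 bases of Kdm6b, 5367 (24.6%) lay under peaks of all 4 libraries and 6226 (28.5%) under none. Bases covered in both KO libraries and neither WT library numbered 202, and bases with the reverse pattern numbered 0. KO replicate 2 and WT replicate 1, the broadest lists, shared 1305 bases that the other libraries lacked. With 50 kb to each side, peaks of all 4 libraries shared 17606 of 121860 bases (14.4%). Another 2838 lay in both KO libraries alone and 417 in both WT libraries alone, while 12833 lay in KO replicate 2 and WT replicate 1 alone. The bases that only the broadest lists shared outnumbered those that only 1 genotype shared.

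The mark around Kdm6b was lopsided. The 50 kb beyond the higher end were covered to 57.6% and 89.4% in KO, against 72.1% and 29.0% in WT. The 50 kb below the lower end were covered to 12.4% and 39.7% in KO, against 22.6% and 8.70% in WT. The higher side exceeded the lower side in 4 of 4 libraries. Flanks did not set Kdm6b apart from each of the other demethylase genes. The higher flank of Kdm2a held more than that of Kdm6b in KO replicate 1 (66.0%) and WT replicate 2 (37.3%). The lower flank of Kdm7a held more in each library, with 30.5% and 51.5% in KO, against 38.9% and 12.6% in WT. The remaining demethylase genes held less on both sides. Over the whole body of Dnah2, 128302 bp long, the covered share was 50.6% and 73.8% in KO, against 67.6% and 28.8% in WT. In bins of 10 kb, the 10 kb of Kdm6b at its higher end held 71.4% and 100% in KO, against 87.5% and 69.3% in WT. At 60 to 70 kb beyond the gene, inside Dnah2, the share was 4.49% and 30.8% in KO, against 38.4% and 8.39% in WT. That was less than in the 10 kb at the higher end of Kdm6b in each library. At 120 to 130 kb, around the start of Dnah2, it was 81.2% and 79.4% in KO, against 93.8% and 69.6% in WT.

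**Figure D2:**
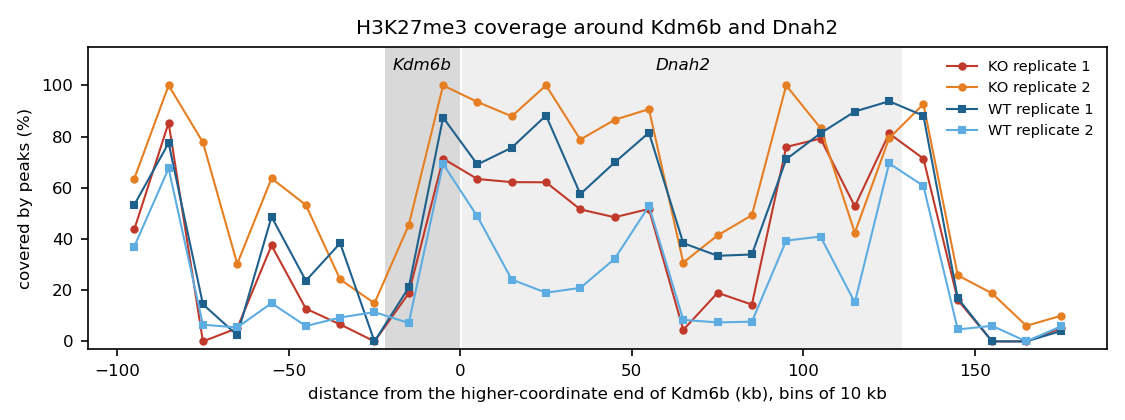
Covered share (%) in bins of 10 kb against the distance in kb from the higher-coordinate end of Kdm6b, 1 line per library, with the bodies of Kdm6b and Dnah2 shaded. The 10 kb of Kdm6b at its higher end are covered to 69.3% or more in each library, and the bin from 20 to 30 kb below that end to 14.9% at most.

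The genes close to the lower end of Kdm6b had most of their coverage in KO replicate 2. Tmem88, a membrane protein gene 273 bp away, had a body covered to 0% and 14.1% in KO, against 0% and 0% in WT. Naa38, a subunit of an N-terminal acetyltransferase, lay wholly inside a peak of KO replicate 2 (100%) and had 0% in KO replicate 1 and in both WT libraries. The body of Cyb5d1 had 0% and 9.61% in KO, against 0% and 4.52% in WT, and its lower end had 32.5% in WT replicate 2 alone. Tmem88, Naa38 and Cyb5d1 lie so close together that 4 of their end windows held the same covered stretch of KO replicate 2, 37.3% of each. Chd3, a helicase of the NuRD complex 29008 bp from Kdm6b, had 16.3% and 56.5% in KO, against 19.5% and 7.77% in WT. At the start of Dnah2 both KO values, 100% and 100%, lay above both WT values, 88.6% and 93.1%, as they did at 6.58% of all gene ends. For none of the 5 neighbours did limma give an adjusted p under 0.907 at either end.

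Set against all genes, the body of Kdm6b was more covered than 87.5% and 86.8% of protein-coding genes in the KO libraries and than 84.5% and 90.3% in the WT libraries. The flank on the Dnah2 side exceeded that of 96.4% and 98.9% of genes in KO and of 96.4% and 90.8% in WT. The opposite flank exceeded that of 66.0% and 78.3% of genes in KO and of 68.5% and 67.3% in WT. The genes whose covered shares were most like those of Kdm6b, by the mean absolute difference over 12 values (body and both ends in 4 libraries), were Rassf5, Notch1, Slc4a11, Ptprs and Tcf20. Rassf5 differed by 2.43 points on average and Tcf20 by 4.35 points. Each had a higher end covered to 100% in KO replicates 1 and 2 and WT replicate 1 and to between 76.9% and 94.3% in WT replicate 2. These values were among the 12 used for the choice, so the likeness is not a separate result.

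None of the other 9 demethylase genes had more than 5.22% of its body under peaks in any library. Their median body share was 0.554% and 0.709% in KO, against 0.591% and 0.180% in WT, while the median over all genes was 0% and 1.114% in KO, against 0% and 0% in WT. Kdm6b stood above each of the 9 in 4 of 4 libraries. Its body share exceeded their mean by 40.5 and 65.2 points in KO and by 48.5 and 35.7 points in WT. Kdm6b is the shortest of the 10 genes, and the others span 43134 to 163368 bp. Over the longer stretch with 50 kb flanks, which evens out length in part, Kdm6b had 36.1% and 64.9% in KO, against 47.8% and 22.1% in WT. The mean of the other 9 there was 6.05% and 10.8% in KO, against 8.74% and 3.68% in WT, and the median over all genes was 6.42% and 12.0% in KO, against 10.4% and 4.40% in WT. Of the 9, 5 in each KO library, 5 in WT replicate 1 and 6 in WT replicate 2 lay below that median. The ranking of 1 gene against 9 was not tested.

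**Figure D3:**
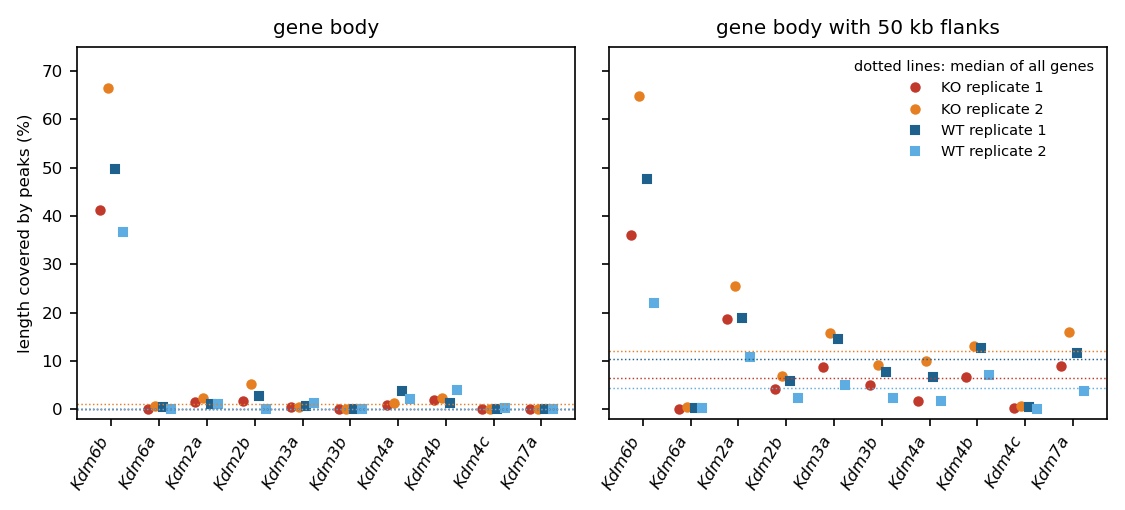
Covered share (%) of the gene body (left) and of the body with 50 kb flanks (right) for the 10 genes, 1 point per library, circles for KO and squares for WT, with dotted lines at the median of all protein-coding genes in each library. Kdm6b lies above the other 9 in each library, and bodies of the others stay at or below 5.22%.

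Kdm6a, the other demethylase of H3K27me3, had almost no peaks. It spans chrX:18160862-18279936. Its body had 0% and 0.709% in KO, against 0.558% and 0% in WT, and the body with flanks reached at most 0.385%. Its peaks were 1 of 844 bp in KO replicate 2 and 1 of 664 bp in WT replicate 1, both near the lower end. That end was covered to 0% and 21.1% in KO, against 16.6% and 0% in WT.

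Kdm2a and Kdm2b act on H3K36 and carry a zinc finger that binds unmethylated CG sites, and Kdm2b belongs to a variant PRC1 complex. Kdm2a (chr19:4316144-4398721) was the only gene of the 9 marked at an end in all 4 libraries. Its higher end was covered to 73.4% and 62.6% in KO, against 67.0% and 43.1% in WT, and its lower end to 0% in each library. A run of 856 bp inside the gene near the higher end, chr19:4397457-4398312, was covered in all 4. The run also lies within the predicted gene 9430078G10Rik, so the mark there cannot be assigned to either gene. Beyond the end, the flank was covered to 66.0% and 79.3% in KO, against 66.8% and 37.3% in WT, and it holds Rhod, a small GTPase gene, whose higher end had 100% and 100% in KO, against 100% and 93.9% in WT. Kdm2b (chr5:122870664-122989270) had 10.8% and 35.0% at its higher end in KO, against 35.4% and 0% in WT, so that 1 library of each genotype was marked.

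Kdm3a and Kdm3b remove methyl groups from H3K9. Kdm3a (chr6:71588970-71632990) had a narrow peak of 846 and 956 bp over its higher end in KO replicates 1 and 2 and of 909 bp in WT replicate 1, while WT replicate 2 had none there. That window was covered to 21.2% and 23.9% in KO, against 22.7% and 0% in WT. Kdm3b (chr18:34777008-34839370) had 0% of its body covered in each library. Its neighbour Egr1, an immediate early transcription factor gene 21836 bp away, had 28.7% and 38.1% at its higher end in KO, against 33.4% and 14.2% in WT.

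Kdm4a, Kdm4b and Kdm4c act on trimethylated H3K9 and H3K36. Kdm4a (chr4:118136957-118180090) had a narrow peak over its higher end in all 4 libraries, of 760 and 782 bp in KO and 1161 and 724 bp in WT. That window was covered to 19% and 19.6% in KO, against 29.0% and 18.1% in WT. Kdm4b (chr17:56325970-56403774) met peaks at its lower end in 3 libraries, with 12.1% and 14.3% in KO, against 0% and 17.3% in WT. Kdm4c (chr4:74242497-74405864) had 0% of its body covered in 3 libraries and 0.180% in WT replicate 2. Kdm7a (chr6:39136620-39206773), a demethylase of H3K9me2 and H3K27me2 with a PHD finger, had 0% of its body and of both ends covered in each library.

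For each gene, the neighbour with the most covered end was picked out by its values. Beside Kdm7a, itself without a peak, the start of Parp12, a member of the poly(ADP-ribose) polymerase family 18270 bp away, was covered to 100% and 88.1% in KO, against 100% and 68.2% in WT. Beside Kdm4b, the higher end of Ptprs, a receptor tyrosine phosphatase gene, had 100% and 100% in KO, against 100% and 94.3% in WT, and its body lies 8651 bp from Kdm4b. Beside Kdm4a, the higher end of Ptprf, a related phosphatase gene, had 82.2% and 84.7% in KO, against 85.9% and 84.7% in WT. Beside Kdm2b, the higher end of Morn3 had 48.6% and 74.4% in KO, against 79.0% and 36.3% in WT. These ends of Ptprs, Ptprf and Morn3 lie 72787, 111315 and 57766 bp from the demethylase gene and so outside the 50 kb flank, although the gene bodies reach into it. The highest neighbour ends were lower beside Kdm3a (Chmp3, 0% and 22.1% in KO, 17.3% and 0% in WT). Beside Kdm6a and Kdm4c they were 0% in KO, and reached 19.95% at Dusp21 and 10.03% at Frmd3, whose end lies 229269 bp from Kdm4c, in WT replicate 2 alone.

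**Figure D4:**
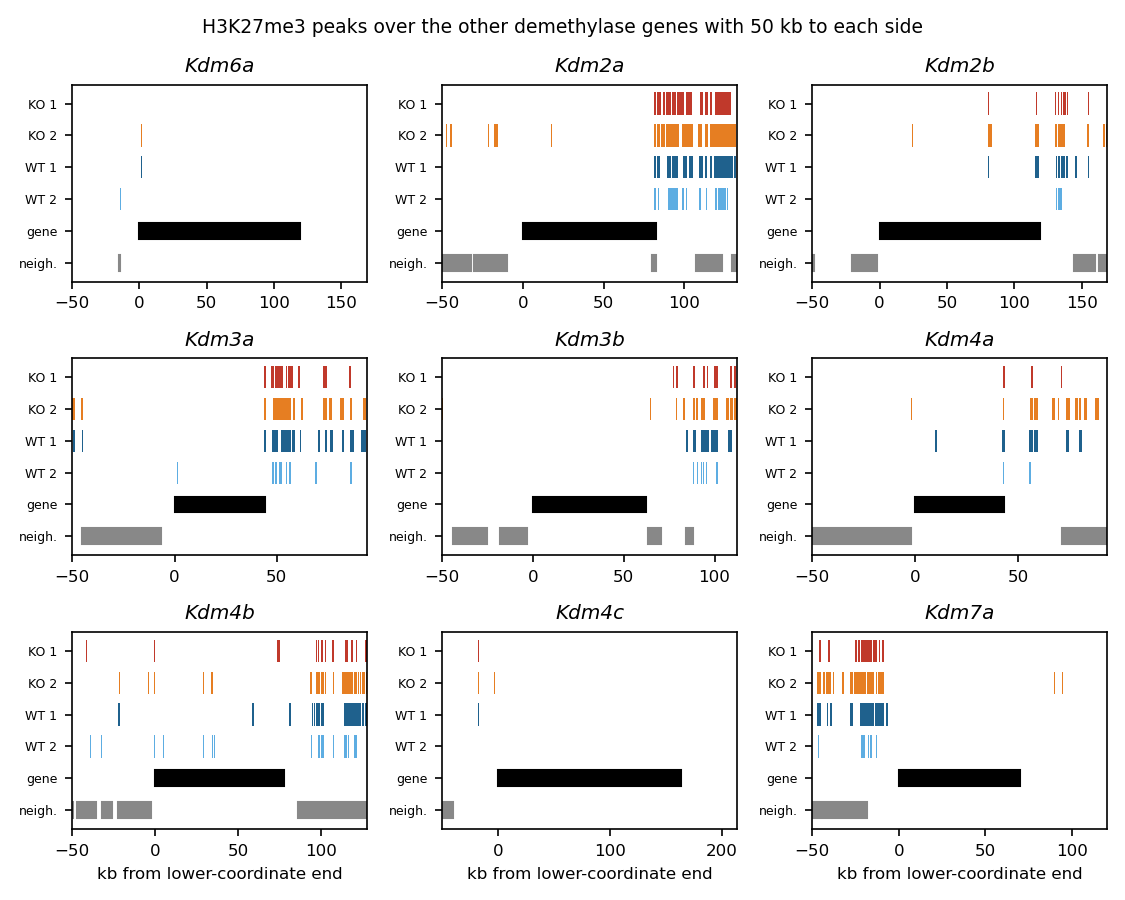
Peaks of each library over the other 9 demethylase genes with 50 kb to each side, against the distance in kb from each gene's lower-coordinate end, KO above WT, with the gene in black and its neighbours in grey. Peaks gather outside the gene bodies, beyond the higher end of Kdm2a and below the lower end of Kdm7a, where both KO libraries and both WT libraries have them.

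The narrow peaks at Kdm4a, Kdm3a and Kdm6a lay over annotated starts. RefSeq promoter sequences on GRCm38.p6, from 250 bases before to 50 bases after a start, were found for 6 of the 10 genes, namely Kdm6a, Kdm2b, Kdm3a, Kdm4a, Kdm4c and Kdm7a. The 4 shown differ in how many libraries had a peak over them. Capitals show each CG dinucleotide, the site that CpG islands are rich in, counted on the strand printed (it reads the same on the other).
Kdm4a, chr4:118179994-118180293, minus strand: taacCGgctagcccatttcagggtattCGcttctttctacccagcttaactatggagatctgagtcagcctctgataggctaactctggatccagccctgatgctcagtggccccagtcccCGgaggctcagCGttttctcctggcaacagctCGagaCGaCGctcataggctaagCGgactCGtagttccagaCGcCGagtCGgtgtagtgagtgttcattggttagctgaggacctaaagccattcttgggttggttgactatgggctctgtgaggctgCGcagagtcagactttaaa
Kdm3a, chr6:71632868-71633167, minus strand: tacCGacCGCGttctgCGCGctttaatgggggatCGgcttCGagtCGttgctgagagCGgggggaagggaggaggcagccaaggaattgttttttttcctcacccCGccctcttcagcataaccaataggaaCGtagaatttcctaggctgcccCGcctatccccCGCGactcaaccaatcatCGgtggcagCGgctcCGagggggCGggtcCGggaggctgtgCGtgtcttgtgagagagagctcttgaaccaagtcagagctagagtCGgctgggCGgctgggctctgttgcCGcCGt
Kdm6a, chrX:18162325-18162624, plus strand: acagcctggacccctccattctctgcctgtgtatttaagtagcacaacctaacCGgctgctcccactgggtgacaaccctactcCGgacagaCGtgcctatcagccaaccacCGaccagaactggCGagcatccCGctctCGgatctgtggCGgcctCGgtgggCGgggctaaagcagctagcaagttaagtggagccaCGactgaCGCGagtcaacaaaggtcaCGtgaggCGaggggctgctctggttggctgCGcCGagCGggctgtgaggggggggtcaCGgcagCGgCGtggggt
Kdm7a, chr6:39206724-39207023, minus strand: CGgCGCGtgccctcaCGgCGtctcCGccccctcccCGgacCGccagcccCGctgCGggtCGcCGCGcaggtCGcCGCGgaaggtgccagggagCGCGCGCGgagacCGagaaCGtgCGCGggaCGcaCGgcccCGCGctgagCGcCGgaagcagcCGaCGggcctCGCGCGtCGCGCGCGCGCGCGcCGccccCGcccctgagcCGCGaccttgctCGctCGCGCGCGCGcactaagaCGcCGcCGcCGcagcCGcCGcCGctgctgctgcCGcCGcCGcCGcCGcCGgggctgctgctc

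The Kdm4a promoter was covered to 100% and 100% in KO, against 100% and 61.3% in WT, and it holds 13 CG, a number that 37.9% of all 32851 promoters reach. The Kdm3a promoter shown was covered to 100% and 100% in KO, against 100% and 0% in WT, and holds 24 CG, reached by 19.98% of promoters. The Kdm6a promoter was covered to 0% and 100% in KO, against 100% and 0% in WT, and holds 21 CG, reached by 24.8%. The Kdm7a promoter was covered to 0% in each library and holds 65 CG, more than most, as 0.00913% of promoters reach that number. The 4 were chosen after their values were seen, and Kdm3a has 2 further entries in the table. The first, at chr6:71632637-71632936, holds 40 CG and was covered to 63.3% and 65.7% in KO, against 68.7% and 0% in WT, and the second, at chr6:71609090-71609389, holds 0 CG and had 0% in each library. Over the 12 entries of the 6 genes, those with 0% in each library held between 0 and 65 CG. Over all promoters, 17.3% met a peak in all 4 libraries and 53.9% in none. A count of CG is a description of the sequence and not a measure of methylation or binding.

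Over the 20 ends of the 10 genes, 10 had coverage in at least 1 library and 10 had 0% in all 4. Over all genes, 20791 of 43774 ends had coverage in at least 1 library, a similar share. Marked ends numbered 2 and 3 in KO, against 4 and 2 in WT, where 22.6% and 33.1% of all 43774 gene ends were marked in KO, against 28.8% and 17.3% in WT. Without Kdm6b they numbered 1 and 2 in KO and 3 and 1 in WT. Kdm6b and Kdm2a were the only genes of the 10 marked in every library. At equal covered length, lists were trimmed from the lowest signal up to the length of WT replicate 2, which stayed whole. The higher end of Kdm2a then had 73.4% and 22% in KO, against 0% and 43.1% in WT, and was marked in 1 library of each genotype. In the full lists, the other marked ends were those of Kdm2b in KO replicate 2 and WT replicate 1 and of Kdm4a in WT replicate 1.

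**Figure D5:**
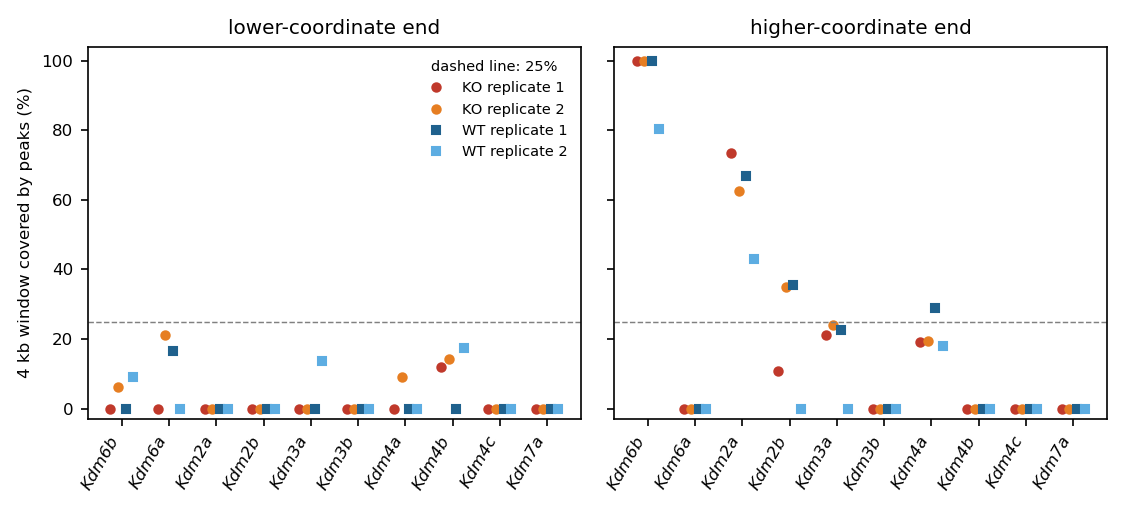
Covered share (%) of the 4 kb window at the lower-coordinate end (left) and higher-coordinate end (right) of the 10 genes, 1 point per library, circles for KO and squares for WT, with a dashed line at 25%. At the higher end of Kdm6b the KO points are at 100% and the WT points at 100% and 80.3%.

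Between genotypes, no end of the 10 genes passed the test. The fit by limma, a linear model that shares its estimate of the spread among ends, took in the 20791 of 43774 ends that any library covered. At an adjusted p of 0.05, 0 (0%) were higher and 0 (0%) lower in KO, while 701 ends were higher and 109 lower, 3.90% in all, when the unadjusted p was held to 0.05. Over all fitted ends the mean KO minus WT difference was 7.30 points, and it was -0.498 without KO replicate 2, -1.72 without WT replicate 2, 15.5 without KO replicate 1 and 17.1 without WT replicate 1. The 10 member ends that entered the fit had unadjusted p-values of 0.344 to 0.861. The higher end of Kdm6b averaged 100% ± 0 in KO, against 90.2% ± 13.9 in WT (SD, n = 2 each), a difference of 9.84 points (SE 9.02, limma adjusted p = 0.907). The higher end of Kdm2a differed by 12.95 points (SE 11.5, limma adjusted p = 0.907), with KO values on both sides of a WT value. No end of the 10 genes had both KO values above both WT values or both below, 0 of 20 in each direction, where 6.58% of all ends lay above and 1.17% below. With 2 mice per genotype, a change at these ends may have gone undetected.

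Over gene bodies, Kdm6b averaged 53.9% ± 17.9 in KO, against 43.2% ± 9.19 in WT (SD, n = 2 each, exact two-sided permutation p = 0.667, where 0.333 is the smallest possible). The difference of 10.8 points was -1.87 without KO replicate 2, 4.27 without WT replicate 2, 23.4 without KO replicate 1 and 17.3 without WT replicate 1, so KO replicate 2 decided its sign. With 50 kb flanks the means were 50.5% ± 20.3 in KO, against 34.9% ± 18.2 in WT (difference 15.6 points, exact permutation p = 0.667), and the difference was 1.20 points without KO replicate 2, 2.73 without WT replicate 2, 30.0 without KO replicate 1 and 28.4 without WT replicate 1. The 4 libraries had the same order at the Kdm6b body, at the Kdm6b locus and over the mean of the other 9 loci as in the length of genome covered, with KO replicate 2 highest, then WT replicate 1, KO replicate 1 and WT replicate 2. The lists were also trimmed to equal covered length, that of WT replicate 2, whose 82292 peaks were all kept. Only the peaks of highest signal remained in the others, 43314 in KO replicate 1, 16716 in KO replicate 2 and 21348 in WT replicate 1. This sets the strongest peaks of those lists against a whole list. The Kdm6b locus then had 27% and 35.3% in KO, against 22.2% and 22.1% in WT, a difference of 9.03 points (exact permutation p = 0.333). The Kdm6b body had 34.2% and 61.8% in KO, against 45.1% and 36.7% in WT, in the trimmed lists (difference 7.14 points, exact permutation p = 1), and there the genotypes overlapped. In those lists, 10.1% of all gene loci had both KO values above both WT values and 10.2% both below, against 5.11% and 1.23% in the full lists. Kdm6b, Kdm2a and Kdm3a, 3 of the 10 genes, had both KO values above at equal covered length.

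Less the median locus of the same library, Kdm6b stood 29.7 and 52.9 points higher in KO and 37.4 and 17.7 points higher in WT (difference 13.8 points, exact permutation p = 0.667). That difference was 2.17 without KO replicate 2, 3.89 without WT replicate 2, 25.3 without KO replicate 1 and 23.6 without WT replicate 1. The mean of the other 9 loci differed by 2.24 points, with -0.161 without KO replicate 2, -0.297 without WT replicate 2, 4.63 without KO replicate 1 and 4.77 without WT replicate 1. Among the 10 bodies, 1 had both KO values above both WT values and 2 had both below, where 7.75% and 1.73% of all genes did. These were Kdm2a, with 1.504% and 2.25% in KO, against 1.16% and 1.112% in WT, Kdm3a, with 0.554% and 0.570% in KO, against 0.591% and 1.24% in WT, and Kdm4a, with 0.941% and 1.33% in KO, against 3.87% and 2.22% in WT. Each rests on 1 or 2 peaks per library. At equal covered length 0 bodies lay above and 1, that of Kdm4a, lay below, where 5.49% and 4.52% of all genes did.

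Of 21 further genes with a JmjC domain, 5 and 10 had a marked end in KO, against 7 and 4 in WT, beside the shares of all genes given above. Hr, which encodes the corepressor hairless, Kdm5b, an H3K4 demethylase gene, Phf2 and Hspbap1 were marked in all 4 libraries, and 10 of the 21 in none. The body of Hr was covered to 75.6% and 90.7% in KO, against 84.5% and 56.5% in WT, more than that of Kdm6b in each library. The lower end of Kdm5b was covered to 93.8% and 92.1% in KO, against 98.3% and 87.5% in WT. Phf2 had 40.8% and 42.9% at its lower end in KO, against 42.0% and 9.58% in WT, where WT replicate 2 was marked only at the other end, with 25.7%. Marked in both KO or both WT libraries alone were 0 genes of the list. The shares of all genes given above are per library. No share over all genes was computed for being marked in all 4 libraries, in none or in 1 genotype alone, so these counts have no background. Of the amine oxidase demethylase genes Kdm1a and Kdm1b, Kdm1b was marked in all 4, with 72.3% and 79.1% at its lower end in KO, against 51.2% and 30.9% in WT. Of 6 genes of the H3K27 methyltransferase complex, 0 and 2 were marked in KO, against 0 and 0 in WT. The 2 were Ezh1 and Rbbp4, named after their values were seen. The higher end of Ezh1 had 0% and 26.9% in KO, against 24.2% and 24.7% in WT. The WT values of Ezh1 thus fell just short of the 25% threshold, and its count in KO replicate 2 depends on that threshold. The higher end of Rbbp4 had 15.25% and 32.1% in KO, against 10.2% and 12.25% in WT.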

How the data were processed

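The authors deposited 1 peak list per library with 6 columns, in which the highest and total signal of each peak have a scale not given in the sources used here. Signal was used only to rank peaks within a list. Per the submitters' processing notes, reads were handled with SEACR, deepTools, SAMtools 1.11, Trim Galore 0.6.6 and Bowtie2 2.4.2 on mm10. Settings, control and threshold were not given in the sources used here. With no read depth in the lists, counting intervals could not be given.

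Only chromosomes 1 to 19, X and Y were used, which left out 56 to 78 peaks per list. Genes came from RefSeq on GRCm38.p6, the assembly of mm10, and a gene's start was known only where a RefSeq promoter was listed. Covered shares were computed with Python 3.11.15, numpy 2.4.6 and pandas 2.3.3, permutation tests with scipy 1.17.1 (6 relabellings), figures with matplotlib 3.10.9. Gene ends were tested with limma 3.58.1 (lmFit, eBayes without trend) in R 4.3.3, after leaving out ends with no coverage in any library, with Benjamini-Hochberg adjustment. The fit was also run on simulated shares with a smaller spread than the real ones and large added differences. That run does not show what the fit can detect in these data. The p-values rest on 2 mice per genotype. The spread between them takes in the unequal covered length of the libraries, and limma shares its estimate of spread among ends.

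Named genes were the 10 genes, each gene within 50 kb of Kdm6b, for each other gene the neighbour whose end had the highest mean, and the 5 genes most like Kdm6b. From the further JmjC, amine oxidase and methyltransferase lists, genes were named where marked in all 4 libraries or in both of one genotype alone, and Kdm1a, Ezh1 and Rbbp4 were added after their values were seen. Cell type markers are given as counts, with germinal center markers and Ms4a1 named after their values were seen. Members and lists were chosen with earlier results of these data known. Alternatives were the upper 50% of each list by highest signal, equal covered length (peaks kept from the highest signal down), other windows and flanks, covered length as a covariate, no filter and each library left out. Replicate numbers only name libraries. 1 listed marker gene is not reported here.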

Additional observations from a re-analysis of the deposited data

How the results depend on the processing

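Of 72 values recomputed under alternatives, 3 changed sign and 16 counts moved, either from 0 or by over 1.5 times. The other 53 kept their direction, or as counts their size, but differences among them moved widely, as given below; the mean of the other 9 loci fell to 0.725 points at equal covered length, against 2.24. At equal covered length, or with the upper 50% of each list (22.95% in WT replicate 2), Kdm2a was no longer marked in every library. The limma calls remained 0 in 9 of 10 alternatives and became 27 with ends lacking coverage kept in, where most residual spreads are exactly 0, of which limma warns. The count of member ends with both KO values above both WT values was 0, and became 1 at equal covered length (the higher end of Kdm3a), 1 with 5000 bp to each side, and 1 to 5 with a library left out. The reverse count ran from 0 to 3 with a library left out; a group of 1 library separates more easily. The KO minus WT difference ran from -1.87 to 23.4 points for the Kdm6b body, from 1.20 to 30.0 for its locus, from 2.17 to 25.3 for its locus less the median, and from -0.297 to 4.77 for the other 9 loci with a library left out. Marked member ends became 6 in KO replicate 1, 9 in KO replicate 2 and 6 in WT replicate 2 when 1 bp was enough, 2 in WT replicate 1 and 1 in WT replicate 2 at 50%, 1 in KO replicate 2 at equal covered length and 1 in WT replicate 2 with the upper 50% of each list. The cause was not tested. No paired analysis was possible because the labels give no replicate numbers that tie a KO to a WT mouse. Unknown depth limits what a share of 0% says about weak signal.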
